A study of Mus musculus with 24 samples.

Results

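Long intergenic noncoding RNAs (lincRNAs) transcribed from one strand only, far from any coding gene on the array, were examined in mouse mammary gland after low-dose ionizing radiation (LDIR). A probe was taken when its name gave an autosomal lincRNA interval tiled on 1 strand (F, plus, or R, minus) and when its midpoint lay at least 100 kb from the midpoint of every coding probe with a position. Coding probe here means any probe of the array outside its lincRNA content, so the class also holds some transcripts without a gene symbol. The rule gave 492 probes at 180 loci, of 15604 autosomal lincRNA probes at 3387 loci with an interval and a strand. They are called distant lincRNAs below. Of the 2345 loci tiled on 1 strand (6173 probes), 2173 had probes nearer than 100 kb to a coding probe (5675 probes, the nearby lincRNAs). The rule used position alone and no measured value. The probes nearest to its threshold belonged to a single locus, chr9:118059348-118079494_F, with 100008 and 100082 bases just inside and 99948 bases just outside, and the next outside was at 99751 bases.

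The arrays carried Cy3-labelled total RNA from the mammary glands of female mice that had been exposed to whole-body X-rays or sham exposed at 8 to 9 weeks of age. BALB/c mice were sampled 2, 4 and 8 weeks after 10 cGy or sham exposure, and SPRET/EiJ mice 4 weeks after it, with 3 arrays in each of the 8 groups and 24 in all. BALB/c is an inbred laboratory strain that carries a less active form of the DNA repair kinase DNA-PKcs and is regarded as the more sensitive of the strains to mammary cancer after radiation. SPRET/EiJ mice are inbred and descend from Mus spretus, another mouse species. No transgene or targeted allele was involved. The gland is a mixture of epithelium, fat, vessels and blood cells, so that fewer cells of a type and less RNA per cell cannot be told apart.

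LincRNAs are transcribed by RNA polymerase II and are often capped, spliced and polyadenylated like mRNAs, but they have no long open reading frame. As a class they are expressed at lower levels and in fewer tissues than mRNAs. Regions far from coding genes, called gene deserts, often hold enhancers of distant developmental genes, and transcripts from such regions can come from the enhancers themselves, from unannotated genes or from introns of very long genes.

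Each locus was read by 60-base probes copied from the strand of the transcript. The probes shown first carry the main findings, and positions are those of the probe on mm9. All are given 5′ to 3′ in the sense of the transcript, in lower case. The first is the brightest distant lincRNA, followed by a lincRNA probe of another interval that read part of the same bases on the opposite strand, with the 25 shared base pairs in capitals. The next 3 were detected in BALB/c tissue and on none of the SPRET/EiJ arrays, and the last was brighter in SPRET/EiJ tissue.
chr6:50361567-50406200_R (chr6:50406120-50406179, minus strand): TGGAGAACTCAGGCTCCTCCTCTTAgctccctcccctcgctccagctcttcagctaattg
chr6:50339188-50409363_F (chr6:50406155-50406214, plus strand): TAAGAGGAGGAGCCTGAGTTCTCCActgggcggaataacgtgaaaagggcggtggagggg
chr16:40283097-40284822_F (chr16:40284763-40284822, plus strand): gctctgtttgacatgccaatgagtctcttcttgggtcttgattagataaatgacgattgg
chr4:56552801-56553404_R (chr4:56553335-56553394, minus strand): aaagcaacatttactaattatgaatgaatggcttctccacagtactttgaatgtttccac
chr8:27925064-27934895_R (chr8:27925067-27925126, minus strand): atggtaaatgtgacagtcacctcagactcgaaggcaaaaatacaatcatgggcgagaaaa
chr16:40657997-40658456_R (chr16:40658091-40658150, minus strand): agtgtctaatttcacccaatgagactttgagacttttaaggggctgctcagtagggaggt

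The 180 loci comprised 89 on the plus and 91 on the minus strand, and 128 of them had 3 probes among the members. No 2 member probes overlapped each other in position. Locus length ranged from 71 to 376921 bases with a median of 2048. The distance to the nearest coding probe had a median of 162 kb and reached 2011 kb. Chromosome 16 held the most loci, 22 with 68 probes, and chromosomes 11 and 19 the fewest, 3 each. The nearest named gene was also sorted by its symbol into fixed lists of gene families, which leave out some transcription factors, such as Barx2 and Egr2. It was in the list of developmental transcription factors for 5 of the 180 loci (2.78%; Irx2, Klf13, Klf7 and Pax3), compared with 42 of all 2345 single-strand loci (1.79%). It was in the adhesion, guidance and synapse list for 1 locus (0.556%, Sema3a), compared with 15 (0.64%).

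Not all of these loci were clearly intergenic. A coding gene longer than 100 kb can have its array probes at the 3′ end only, and its introns then count as distant. When gene lengths from RefSeq were laid on mm9 from the most 3′ array probe of each gene, 158 of the 492 probes (32.1%), at 55 loci, fell within the estimated span of 25 coding genes. Of these probes 118 ran on the strand of the gene and 40 on the other strand. The largest groups lay in the span of Lsamp, which encodes a neuronal cell adhesion protein (41 probes at 14 loci), of Piezo2, a mechanically gated ion channel (15 probes), and of Gse1 (14 probes). The remaining 334 probes, at 125 loci, lay outside every estimated span. A single-strand interval did not mean that the other strand was without lincRNA intervals either. Of the loci, 57 (31.7%) overlapped a lincRNA interval of another name on the opposite strand, against 1230 (52.5%) of all single-strand loci. Whether that strand was transcribed at these loci was not tested.

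Distant lincRNAs were detected on fewer arrays and at lower levels than coding transcripts. Detection is the scanner's flag for a spot well above its local background, and a level is the log2 of the processed signal minus the 75th percentile of the array. In BALB/c sham tissue at 2 weeks 47.8% ± 3.26 of the distant probes were detected (SD, n = 3), and in LDIR tissue 51.8% ± 1.47. At 4 weeks the values were 51.2% ± 3.04 in sham and 54.9% ± 3.1 in LDIR tissue (SD, n = 3). At 8 weeks they were 51.8% ± 1.73 and 48.6% ± 6.62 (SD, n = 3). In SPRET/EiJ tissue they were 45.2% ± 1.73 in sham and 42.5% ± 9.15 in LDIR tissue (SD, n = 3). In each of the 24 arrays the share was below that of the coding probes, which was 64.5 to 77.6%. It was also below that of the nearby lincRNAs, which was 39.8 to 64.2%. The 3 sham arrays at 4 weeks did not overlap between strains, at 47.8 to 53.5% in BALB/c and 43.9 to 47.2% in SPRET/EiJ, while the sham and LDIR arrays of each strain overlapped at every time. All SPRET/EiJ arrays were on the same slide, slide 3. BALB/c 8-week LDIR replicates B and C, also on slide 3, had 42.3 and 48.2%, so strain and slide cannot be told apart here.

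**Figure D1:**
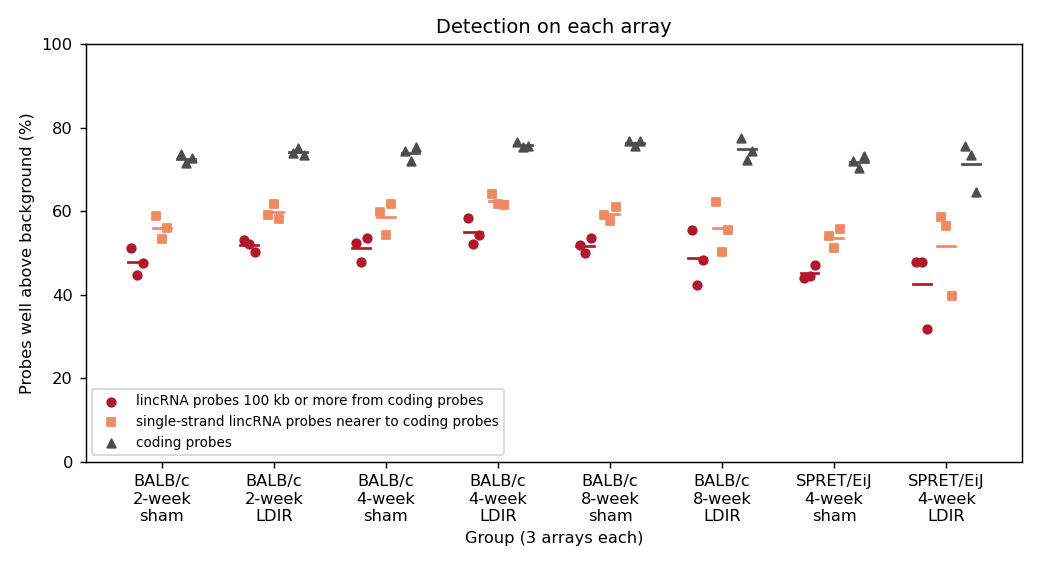
Share of probes well above background on each array (y axis, %), by group (x axis, 3 arrays each), for distant lincRNA probes (circles), nearby single-strand lincRNA probes (squares) and coding probes (triangles); short lines are group means. The distant probes lie between 31.9 and 58.3%, under the coding probes on every array, and the lowest point is SPRET/EiJ LDIR replicate C.

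The median level of the distant probes was highest in BALB/c LDIR tissue at 4 weeks, at -5.11 ± 0.14 (SD, n = 3), and lowest in SPRET/EiJ sham tissue, at -5.99 ± 0.17 (SD, n = 3). On slide 3 it was -6.20 and -6.04 in BALB/c 8-week LDIR replicates B and C, and -6.18 to -5.85 on the SPRET/EiJ sham arrays. Coding probes had group medians of -2.43 to -2.25. One BALB/c array, 8-week sham replicate A, had brighter negative controls (median intensity 4.86, against 1.66 to 2.98 on the arrays other than SPRET/EiJ LDIR replicate C, at 3.77) and a raised median of the distant probes, -4.37 against -5.76 and -5.70 in the other two of its group. SPRET/EiJ LDIR replicate C had 31.9% of the distant probes detected, against 47.8% on both other arrays of its group. The markers of the gland were present: all 4 luminal (Krt8, Krt18, Krt19, Epcam), all 3 basal and all 4 white adipocyte markers were detected on the 24 arrays.

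Over the 24 arrays 135 of the 492 probes (27.4%) were detected on every array and 108 (22%) on none. The corresponding shares were 60.4% and 10.8% of all coding probes. Among coding probes of equal level, weighted to the levels of the members in bins of 1 log2 unit, they were 27.5% and 22.9%. Coding probes as dim as the distant lincRNAs were thus detected about as often. By locus, 90 of 180 (50%) had at least 1 probe detected on every array and 12 (6.67%) had none detected on any.

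The share of distant lincRNAs detected on every array was larger at higher GC content of the probe and smaller at larger distance from coding probes. Of the probes with a GC content of 38.3% or less, 14% were detected on all arrays (n = 150). The share was 16.3% at 40 to 43.3% GC (n = 98), 27.6% at 45% (n = 152) and 60.9% at 46.7% or more (n = 92). Over the same classes the nearby lincRNAs had 22.2, 31.8, 31.5 and 55.2%, and coding probes went from 55.5 to 71.6%. By distance the share was 29.5% at 100 to 150 kb (207 probes, 82 loci), 29.4% at 150 to 250 kb (180 probes), 23.3% at 250 to 500 kb (73 probes) and 12.5% at 500 kb or more (32 probes, 10 loci). The median GC content was lower in the same order, from 45 through 43.3 and 41.7 to 40%, and the separate part of each was not tested. The polyadenylation signal AATAAA was present in 24 of the 492 probes (4.88%), in 4.48% of the nearby lincRNA probes and in 12.6% of the coding probes; it was searched on the probe strand only. The reverse complement TTTATT, as a count for the other strand, was present in 3.66%, 3.08% and 4.03%.

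**Figure D2:**
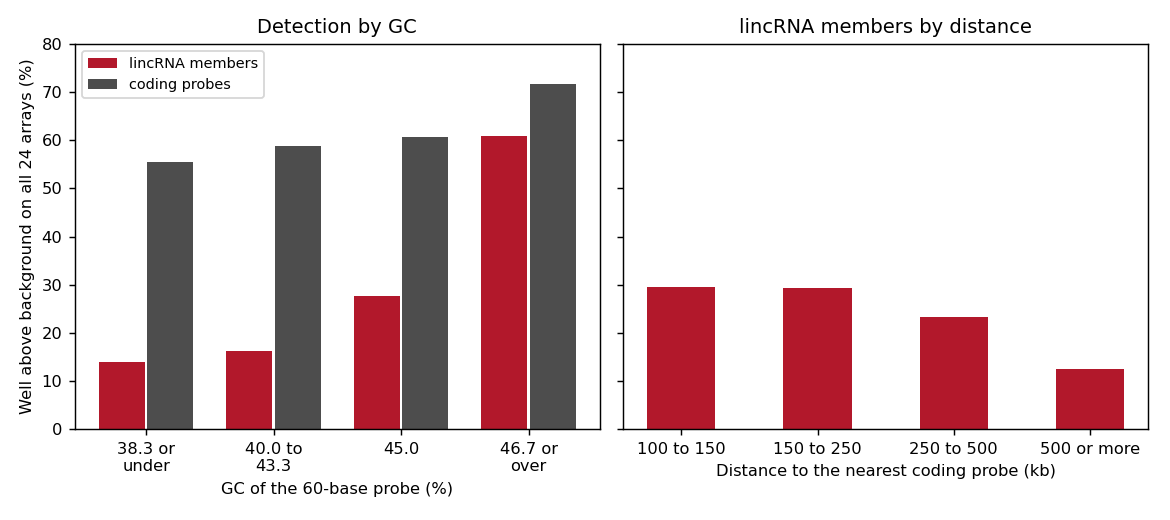
Left, share of probes well above background on all 24 arrays (y axis, %) by GC content of the probe (x axis, %), for distant lincRNA and coding probes; right, the same share for distant lincRNA probes by distance to the nearest coding probe (x axis, kb). The left bars go from 14 to 60.9% for the distant lincRNAs, and the right bars from 29.5 to 12.5%.

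Probes of the same locus often disagreed in level. Over the 157 loci with several probes, the range of mean levels within a locus had a median of 2.62 log2 units and reached 9.48, while the SD over all members was 2.35. At 34 of these loci 1 probe was detected on every array and another on none. The mean level of single members ranged from -7.93 to 4.90 with a median of -5.63.

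The brightest distant probe was at chr6:50361567-50406200_R, within the estimated span of Osbpl3, an oxysterol-binding protein gene, on the same strand. Its level was 4.65, 4.72 and 4.92 in BALB/c sham tissue at 2 weeks and 4.66, 5.0 and 5.19 in LDIR tissue. At 4 weeks it was 5.03, 4.65 and 5.09 in sham and 4.94, 5.0 and 5.14 in LDIR tissue of BALB/c, and 4.98, 5.30 and 5.38 in sham and 5.11, 5.2 and 5.39 in LDIR tissue of SPRET/EiJ. At 8 weeks it was 4.73, 4.41 and 4.28 in BALB/c sham and 4.59, 4.52 and 4.83 in LDIR tissue. The groups of each comparison overlapped, and none passed its thresholds. The other two probes of the locus were far dimmer, with means of -2.10 and -4.57. The probe of the brightest locus and its opposite-strand partner are the first pair of sequences above. The minus-strand probe had a mean level of 4.90 (lowest 4.28, highest 5.39) and the plus-strand probe one of -3.30 (lowest -3.71, highest -2.17), both detected on all 24 arrays. These are levels of different probes, which differ in their other bases, and they were not tested against each other.

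The next brightest locus was chr8:27912000-27992750_F, 158 kb from Zfp703, a transcriptional repressor gene of the mammary luminal lineage. Its 5 probes had mean levels of 1.05, 1.39, 1.42, 1.57 and 1.83 and were detected on all 24 arrays. Strain differences (BALB/c minus SPRET/EiJ) in sham tissue were -0.27 to -0.95 and passed no threshold. A stretch of this locus is repeated in the array's content, as shown by the probe pair with 25 identical bases in capitals.
chr8:27912000-27992750_F (chr8:27933853-27933912, plus strand): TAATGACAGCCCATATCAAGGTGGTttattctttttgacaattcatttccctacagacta
chr12:21584725-21595050_R (chr12:21585644-21585703, minus strand): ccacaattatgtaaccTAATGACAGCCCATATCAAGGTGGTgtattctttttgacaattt
The means of this pair were 1.39 and 1.49 over the 24 arrays. Over all members, 23 of the 492 probes shared a run of 25 bases with another lincRNA probe on either strand, and 0 with a coding probe. Of the 23, 6 shared the run with another member. Matches elsewhere in the genome were not searched, so that signal from chr8:27912000-27992750_F and from other copies of its sequence cannot be told apart.

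The remaining probes among the brightest 6 lay outside estimated spans, apart from one opposite to Arhgap32. Mean levels were 1.33 at chr16:94055900-94120575_R (166 kb from Cldn14, a tight junction gene), 1.29 at chr9:31839533-31840971_R (185 kb from Barx2, a homeobox gene; the Arhgap32 case) and 1.06 at chr9:30529709-30589042_R (177 kb from Adamts15, a secreted metalloproteinase). The mean was 0.89 at chr14:65206167-65206949_F (219 kb from Kif13b, a kinesin). Among probes detected on every array, the one farthest from a coding probe was chr5:79860066-79860625_F, 891 kb away, with a mean level of -2.73. Those at chr16:40592137-40594284_F (522 kb, -0.89), chr2:108382077-108441137_R (520 kb, -3.59) and chr16:7947710-7948066_R (462 kb, -2.19) followed.

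Between strains, most distant lincRNAs that differed were higher in BALB/c tissue. In sham tissue at 4 weeks, 44 of 492 probes (8.94%) at 30 loci passed the thresholds (limma, unadjusted p under 0.001 and over 1.5-fold), 36 higher in BALB/c (7.32%) and 8 lower (1.63%). Over all 55681 probes of the array 8.86% passed, 5.43% higher and 3.43% lower, and over coding probes of equal level 8.22%, 5.27% higher and 2.95% lower. The number of distant lincRNAs that passed was therefore close to the background, and the split between the directions leaned further to BALB/c than in these 2 classes. The nearby lincRNAs also leaned to BALB/c, with 6.15% higher and 2.45% lower. Of the 36 distant probes higher in BALB/c, 12 lay in the estimated span of the single gene Lsamp. The median difference over members was -0.02, beside -0.06 over all probes. With the limma p adjusted over all probes, 84 members were under 0.05, and 10423 (18.7%) of all probes.

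In LDIR tissue at 4 weeks, which uses other arrays, 29 members (5.89%) at 19 loci passed, 26 higher and 3 lower, beside 5.68% of all probes (3.84% higher and 1.84% lower) and 5.73% of coding probes of equal level. Of the nearby lincRNAs 4.86% were higher and 1.48% lower. The adjusted limma p was under 0.05 for 54 members and for 11.1% of all probes. All 44 probes that passed in sham tissue had the same direction in LDIR tissue. Both comparisons were passed by 22 probes at 15 loci, 19 higher and 3 lower in BALB/c, which is 50% of those that passed in sham and 75.9% of those that passed in LDIR tissue. Of the coding probes that passed in sham tissue, 45.6% also passed in LDIR tissue.

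**Figure D3:**
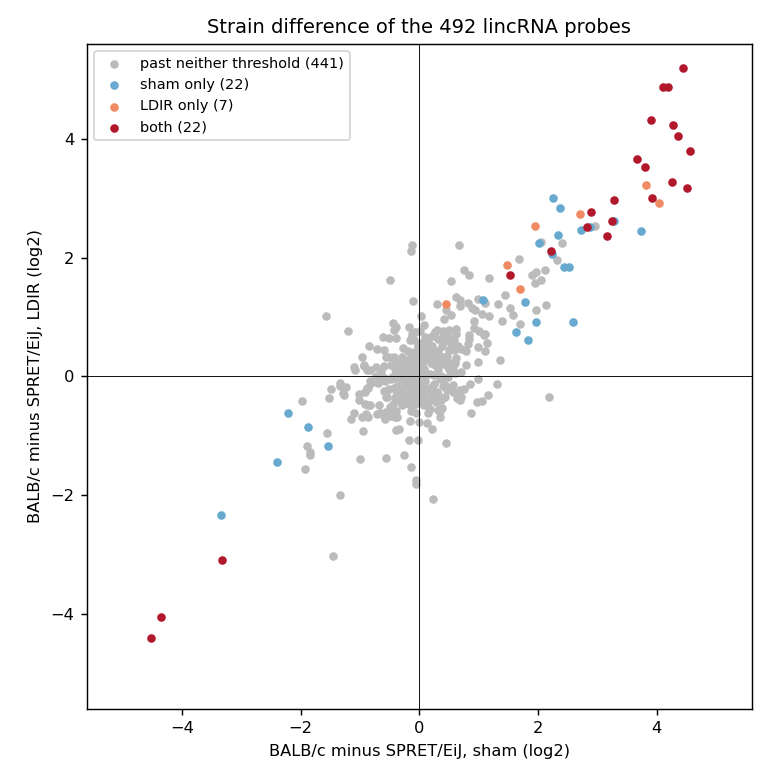
Strain difference (BALB/c minus SPRET/EiJ, log2) of the 492 distant lincRNA probes in sham (x axis) and in LDIR tissue (y axis) at 4 weeks, coloured by the comparisons whose thresholds they passed. The 22 probes past both lie at the upper right (19) and the lower left (3).

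Many of the probes higher in BALB/c were at background in SPRET/EiJ. Of the 36 higher in sham tissue, 30 (83.3%) were detected on 0 of 3 SPRET/EiJ sham arrays. The share was 28.0% of the coding probes called higher and 64.4% of those with an equal BALB/c level. In LDIR tissue it was 18 of 26 (69.2%), beside 27.4% and 53.4%. For these probes the fold is only a bound, given below as at least N-fold. It compares the mean of the bright group with a floor for the dim group, which on each array is the weakest signal still well above background, or the signal of the probe itself where that is greater. The probes were designed on the reference genome and the SPRET/EiJ sequence was not used here, so a base mismatch and a lower RNA level cannot be told apart.

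Summed levels of the luminal and basal epithelial markers were lower in SPRET/EiJ than in BALB/c sham tissue, and Acta2, a basal marker that smooth muscle also expresses, passed the thresholds (3.69), while the other 6 did not. Krt5 and Krt14, the other basal markers, differed by 0.53 and 0.85. The summed level of the 4 luminal markers was 6.88 to 7.94 in BALB/c and 4.32 to 6.81 in SPRET/EiJ sham arrays, and that of the 3 basal markers 4.56 to 5.0 and 1.92 to 3.31 (log2). In LDIR tissue the luminal sums were 6.94 to 8.34 and 4.94 to 6.28. Other lists also separated the sham arrays. Endothelial sums were 2.67 to 2.85 in BALB/c and 1.91 to 2.43 in SPRET/EiJ. Lymphocytes (2.83 to 3.09 and 3.31 to 3.49) and erythrocytes (6.04 to 6.37 and 6.41 to 7.69) were higher in SPRET/EiJ. The white adipocyte marker Plin1 (3.86) and the lymphocyte marker Cd79a (-1.29) passed the thresholds in sham tissue. The part of these marker differences in the results on lincRNAs was not tested. No marker of any of the 10 lists was undetected on all arrays. With normexp background correction, which keeps dim signals away from 0 by an offset of 50, 5.08% passed in sham and 1.02% in LDIR tissue. Among the sham differences described below, those at chr16:40283097-40284822_F, chr4:56552801-56553404_R and chr16:40471828-40472481_F, kept their direction and were then 1.15, 1.3 and 1.43, and that at chr16:40657997-40658456_R was -1.19.

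The strains were hybridised on different slides, since the SPRET/EiJ arrays were all on slide 3 and the BALB/c arrays of 4 weeks on slides 1 and 2. With slide as a block over the 24 arrays, 5 members passed in sham tissue (1.02%) and 8 in LDIR tissue (1.63%). Without BALB/c LDIR replicate A, B or C the share in LDIR tissue came to 2.24, 2.44 and 2.44%, and without SPRET/EiJ LDIR replicate B to 3.05%. Within slide 3, which held 2 BALB/c LDIR arrays of 8 weeks and the SPRET/EiJ LDIR arrays of 4 weeks, 3 members (0.61%) passed.

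The members were then divided by estimated gene span. Of the 158 probes inside a span 26 (16.5%) passed in sham and 20 (12.7%) in LDIR tissue, and of the 334 outside 18 (5.39%) and 9 (2.69%). The median level was -4.79 inside and -6.08 outside, and the difference between the classes was not tested. Of the 41 probes within the estimated Lsamp span, chr16:40267386-40658456, 13 passed in sham and 12 in LDIR tissue, and 11 passed both, at 5 loci. Without that region 31 probes (6.87%) and 17 (3.77%) passed. The 117 probes in other spans gave 13 (11.1%) and 8 (6.84%).

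The Lsamp region held 32 probes on the strand of the gene and 9 on the other. Its differences between strains were not uniform, at -3.32 to 4.55 in sham tissue with a median of 0.69, and -3.09 to 5.19 in LDIR tissue with a median of 0.80. Of its probes 4 were detected on all 24 arrays and 5 on none. The 5 loci that passed both comparisons are described in genome order.

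At chr16:40267386-40268181_F the levels of the brightest of 3 probes were -2.74, -2.13 and -1.63 in BALB/c sham and -5.71, -6.96 and -6.15 in SPRET/EiJ sham tissue. In LDIR tissue they were -2.31, -2.48 and -1.60 and -7.92, -6.65 and -6.46. This probe was detected on all 18 BALB/c arrays and on none of the 6 SPRET/EiJ arrays, and the groups did not overlap. The difference was 4.11 in sham tissue (SE 0.41, limma adjusted p = 0.0015, at least 10.4-fold) and 4.88 in LDIR tissue (SE 0.46, limma adjusted p = 0.0018, at least 9.38-fold). The other two probes differed by 4.25 and 4.27 in sham and by 3.28 and 4.23 in LDIR tissue and passed as well.

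At chr16:40283097-40284822_F, 17 kb further and the first of the strain-dependent sequences shown above, the brightest probe was at -2.95, -2.46 and -1.52 in BALB/c sham and -7.49, -6.51 and -6.56 in SPRET/EiJ sham tissue. The strains differed by 4.55 (SE 0.44, limma adjusted p = 0.0014, at least 9.43-fold) and in LDIR tissue by 3.79 (SE 0.56, limma adjusted p = 0.0088, at least 7.72-fold). BALB/c and SPRET/EiJ arrays did not overlap. The second probe differed by 4.35 and 4.05, and the third, which was detected on 7 of 24 arrays, by 2.32 and 1.96 without passing.

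At chr16:40307070-40308718_F, 40 kb from the first locus, the brightest probe differed by 3.67 in sham tissue (SE 0.31, limma adjusted p = 0.00082) and by 3.66 in LDIR tissue (SE 0.51, limma adjusted p = 0.0074), at least 3.14-fold in both. Some 204 kb from the first locus, at chr16:40471828-40472481_F, the levels were -2.42, -1.68 and -1.49 in BALB/c sham and -5.34, -7.24 and -5.57 in SPRET/EiJ sham tissue, with 1 of the latter 3 arrays above background. The difference was 4.19 (SE 0.55, limma adjusted p = 0.004), and in LDIR tissue 4.88 (SE 0.53, limma adjusted p = 0.0031, at least 10.2-fold). All 3 probes of this locus passed both comparisons.

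The fifth locus ran opposite to Lsamp and in the other direction. At chr16:40657997-40658456_R, 390 kb from the first locus, the brightest probe was at -5.61, -6.16 and -4.94 in BALB/c sham and at -2.44, -2.24 and -2.06 in SPRET/EiJ sham tissue. In LDIR tissue the levels were -4.97, -4.72 and -4.75 and -1.48, -1.98 and -1.72, again without overlap. The difference was -3.32 (SE 0.33, limma adjusted p = 0.0015) and -3.09 (SE 0.23, limma adjusted p = 0.00092). The other two probes of this locus differed by 0.92 and 0.53 in sham tissue without passing, and were detected on 2 and 1 of 24 arrays.

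Between these loci the other members of the region varied. At chr16:40312038-40315564_F 2 probes passed in sham tissue, with differences of 2.72 and 2.88, and differed by 2.46 and 2.51 in LDIR tissue without passing, while the third and brighter probe differed by -0.16 in sham tissue. At chr16:40470294-40470935_F 1 probe differed by 2.4 and 2.24 without passing. The brightest probe of the region, at chr16:40592137-40594284_F, was at -0.72, -0.56 and -0.51 in BALB/c sham and -0.87, -0.66 and -0.78 in SPRET/EiJ sham tissue, a difference of 0.17 (SE 0.16) that passed no threshold. The coding probes of Lsamp differed by 2.66 (limma adjusted p = 0.015) and 0.29 in sham tissue and by 1.97 (limma adjusted p = 0.042) and 1.25 in LDIR tissue, none past the thresholds. The nearest coding probe of several of these loci, of the predicted gene Gm16498, passed with 2.87 and 2.76.

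**Figure D4:**
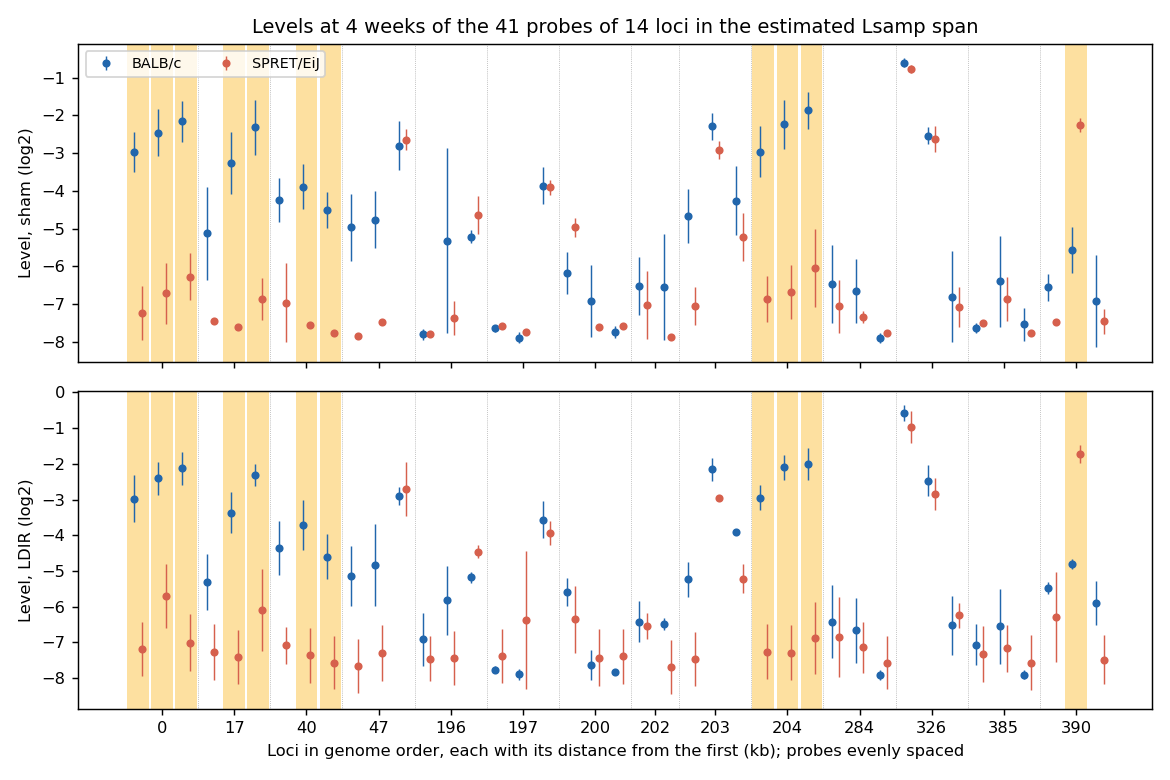
Level (log2, y axis) of the 41 probes in the estimated Lsamp span in BALB/c and SPRET/EiJ tissue at 4 weeks (mean ± SD, n = 3), sham above and LDIR below; probes are in genome order and the x axis gives each locus's distance from the first in kb. Shading marks the 11 probes past the thresholds of both comparisons, 10 higher in BALB/c and 1, at the right end, lower.

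The locus chr4:56552801-56553404_R, with 1 probe, lay outside every estimated gene span, 200 kb from Actl7b, an actin-like gene of the testis. Its level was -1.74, -1.95 and -2.27 in BALB/c sham and -6.18, -7.18 and -6.12 in SPRET/EiJ sham tissue, a difference of 4.51 (SE 0.33, limma adjusted p = 0.00051, at least 11.8-fold). In LDIR tissue the levels were -2.73, -2.45 and -2.53 and -6.61, -5.73 and -4.92, a difference of 3.18 (SE 0.43, limma adjusted p = 0.0066, at least 6.92-fold). The BALB/c arrays of 2 weeks lay at -3.14 to -2.12 and those of 8 weeks at -5.30 to -3.35. The groups of 4 weeks did not overlap between strains. The Actl7b probe differed by 0.53 and 0.65, past no threshold.

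Near Zfp703, the minus-strand locus chr8:27925064-27934895_R overlapped the bright plus-strand locus described above. Its first probe was at -3.8, -3.18 and -4.07 in BALB/c sham and at -7.19, -7.75 and -7.87 in SPRET/EiJ sham tissue, where it was detected on 0 of 3 arrays. The difference was 3.92 (SE 0.30, limma adjusted p = 0.00061, at least 3.64-fold), and 3.01 in LDIR tissue (SE 0.44, limma adjusted p = 0.0085, at least 1.68-fold). The second probe of the locus, at a mean of -1.68 and detected on all arrays, differed by 0.03 (SE 0.21), and the 5 plus-strand probes by -0.27 to -0.95. The Zfp703 probe differed by 0.36 and 0.23, past no threshold.

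The remaining named members lay at other loci. At chr18:23910833-23933185_F, within the estimated span of the microtubule-binding gene Mapre2, the difference of 1 probe was 3.8 in sham tissue (at least 4.8-fold) and 3.53 in LDIR tissue (at least 2.89-fold). Both passed the thresholds, and the other probes of the locus differed by 0.84 and 3.28 in sham tissue, the latter past them. The Mapre2 probes differed by -0.70 and -0.38 in sham tissue. At chr15:41288197-41522572_R, opposite to Oxr1, a gene of oxidation resistance, 1 probe was lower in BALB/c sham tissue by 2.22 (at least 3.4-fold) and the other higher by 2.22. At chr17:3346621-3347209_F, in the estimated span of Tiam2, the difference was 3.23 in LDIR tissue and passed, and 3.82 in sham tissue (SE 0.99) and did not. Past the thresholds in sham tissue, and lower in BALB/c, was 1 probe each at chr1:94077196-94077860_F, opposite to the histone deacetylase gene Hdac4 (-1.54), at chr18:63463356-63463691_F, opposite to Piezo2 (-1.87), and at chr1:100501706-100608933_F (-2.40, at least 1.32-fold). The last of these was detected on 5 of 24 arrays. In LDIR tissue the named probes differed in the same direction, by -1.18, -0.86 and -1.45, without passing. Other probes of these loci differed in sham tissue by 0.43 and -0.26, by 0.07 and 0.69, and by -0.17 and -0.43, without passing.

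After LDIR no distant lincRNA had an adjusted p under 0.05 in any comparison, whether limma or the methods' unmoderated test was used. By limma's unadjusted p, 27 members at 2 weeks, 31 at 4 weeks and 17 at 8 weeks in BALB/c, 16 in SPRET/EiJ and 19 for the interaction of strain and LDIR were under 0.05. Over all probes the counts were 2778, 3419, 1037, 1233 and 1979 in the same order, of 55680 or 55681 tested. At the thresholds for LDIR (unadjusted p under 0.05 and over 1.5-fold), limma gave 18, 24, 17, 16 and 19 members and the methods' test 11, 10, 9, 8 and 18. None of them held after adjustment, and with normexp correction 0 members passed at any of the 4 times and strains. In all, 423 of 492 members passed in 0 of the 4 LDIR comparisons, 63 in 1 and 6 in 2, and 378 passed in none of the 7 comparisons. These counts over several comparisons have no share of all probes beside them and are not read against the background.

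In BALB/c at 2 weeks 18 members passed (3.66%), 16 higher and 2 lower after LDIR, beside 3.11% of all probes (2.23% higher and 0.884% lower) and 3.85% of coding probes of equal level. With the replicate letter as a block 5.89% passed, and without sham replicate A likewise 5.89%. Their differences ran from -0.79 to 1.95, and 1 of the 18 was detected on all 24 arrays. At chr5:75186625-75186910_F, where the probe shares a run of 25 bases with a neighbouring probe of the locus, the level was -6.23, -7.14 and -6.23 in sham and -5.23, -5.29 and -5.39 in LDIR tissue, without overlap. The difference was 1.23 (SE 0.28, limma adjusted p = 0.8, at least 1.26-fold). This probe was detected on 12 of 24 arrays. The neighbouring probe, at a mean of -4.37 and detected on all 24 arrays, differed by 0.16 and the third probe by 0.44, without passing. At chr9:34192364-34192810_R, the member among the 18 that was detected throughout, it was -2.36, -2.94 and -2.32 in sham and -1.66, -1.83 and -1.86 in LDIR tissue, a difference of 0.76 (SE 0.21, limma adjusted p = 0.89). The same probe differed by 0.69 at 4 weeks and 0.08 at 8 weeks without passing. The other two named members at 2 weeks were chr3:40966969-40976585_R, 106 kb from Pgrmc2, at 0.95, and chr19:14911511-14911831_R at -0.79. The first of these also passed at 4 weeks, at 0.74.

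In BALB/c at 4 weeks 24 members (4.88%) passed, 21 higher and 3 lower, beside 4.83% of all probes (3.45% higher and 1.38% lower) and 5.74% of coding probes of equal level. Without sham replicate C 14% passed, and without sham replicate B 2.85%. At chr10:66760153-66881675_F, 123 kb from Egr2, an immediate early transcription factor gene, levels were -6.75, -7.65 and -5.02 in sham and -4.98, -4.65 and -4.87 in LDIR tissue. Sham replicate C lay next to the lowest LDIR array, and the difference was 1.64 (SE 0.63, limma adjusted p = 0.78). Within slide 2, which held sham replicate C and the 3 LDIR arrays, it was 0.18. This probe was detected on 5 of 24 arrays. The others of the locus, detected on 23 and 0, differed by 0.41 and 0.07 without passing. At chr17:14683411-14698476_F, 107 kb from Thbs2, a matricellular thrombospondin, levels were -6.42, -5.93 and -5.18 in sham and -5.05, -4.21 and -4.14 in LDIR tissue, a difference of 1.38 (SE 0.39, limma adjusted p = 0.75) and of 0.72 within slide 2. The strain-dependent probe at chr8:27925064-27934895_R was lower after LDIR, at -5.10, -4.52 and -4.22, a difference of -0.93 (SE 0.32, limma adjusted p = 0.78) and of -0.54 within slide 2. The second probe of that locus, detected on all 24 arrays, differed by 0.01. The other named members were 1 probe at chr15:41288197-41522572_R (1.09, at least 1.56-fold) and 1 at chr6:90749574-90750492_R, in the estimated span of Iqsec1 (-0.81). The other probe of the chr15 locus, detected on all 24 arrays, differed by -0.15. At the chr6 locus another probe passed in the opposite direction (0.79), and the third, detected on all 24 arrays, differed by 0.44 without passing. At this time 2 of 3 macrophage markers were past the thresholds higher, 2 of 3 basal markers lower, 1 milk protein higher and 1 brown adipocyte marker lower after LDIR. The summed macrophage level was 4.04 to 5.02 in sham and 5.06 to 5.58 in LDIR arrays, and its part in the lincRNA values was not tested.

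At 8 weeks 17 members (3.46%) passed, all 17 of them lower after LDIR and 0 higher. Over all probes 1.81% passed, 0.167% higher and 1.64% lower, and over coding probes of equal level 2.56%, 0.216% higher and 2.35% lower. Of the nearby lincRNAs 0.141% were higher and 2.52% lower, so these classes leaned lower as well. The median difference over the members was -0.34, beside -0.14 over all probes and -0.36 over coding probes of equal level. The brighter negative controls of sham replicate A and the split of the LDIR arrays over slides 2 and 3 went with this comparison, and within slide 2 (3 sham arrays, 1 LDIR array) 5 members (1.02%) passed, 3 of them higher, with the lone LDIR array assumed to vary like the sham arrays. Without LDIR replicate C 1.42% passed, and without sham replicate B 5.69%.

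In SPRET/EiJ at 4 weeks 16 members (3.25%) passed, 12 higher and 4 lower, beside 2.2% of all probes (1.6% higher and 0.603% lower) and 2.95% of coding probes of equal level. Without LDIR replicate A, B or C the share was 5.28, 6.1 and 2.03%. None of the 16 was detected on all 24 arrays, and 3 were detected on none. Lower after LDIR were chr17:10057283-10075014_F, at -4.97, -4.66 and -4.18 in sham and -6.65, -5.14 and -6.44 in LDIR tissue (-1.47, SE 0.45, limma adjusted p = 0.97), and chr16:40467818-40468474_F of the Lsamp region (-1.40, at least 1.32-fold).

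The change after LDIR differed between the strains past the thresholds for 19 members (3.86%), 10 more positive in BALB/c and 9 more negative, beside 3.55% of all probes (2.0% and 1.55%) and 4.38% of coding probes of equal level. Without BALB/c sham replicate C it was 7.72%, and without SPRET/EiJ LDIR replicate B 5.89%. The single member that met the rule for naming was chr1:90912687-90918785_F, 137 kb from Sh3bp4, an endocytosis adaptor gene. Its level was -3.32, -3.41 and -3.09 in BALB/c sham and -2.64, -2.76 and -2.62 in LDIR tissue, and -2.45, -2.51 and -2.37 in SPRET/EiJ sham and -3.10, -2.62 and -2.62 in LDIR tissue. BALB/c LDIR arrays were above the sham arrays and SPRET/EiJ LDIR arrays below them, and the interaction was 0.93 (SE 0.28, limma adjusted p = 0.96). Of the other probes of the locus, the one detected on all 24 arrays had an interaction of 0.3 (0.21 in BALB/c and -0.09 in SPRET/EiJ). The other, detected on 22 arrays, had 1.0, and neither interaction passed.

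**Figure D5:**
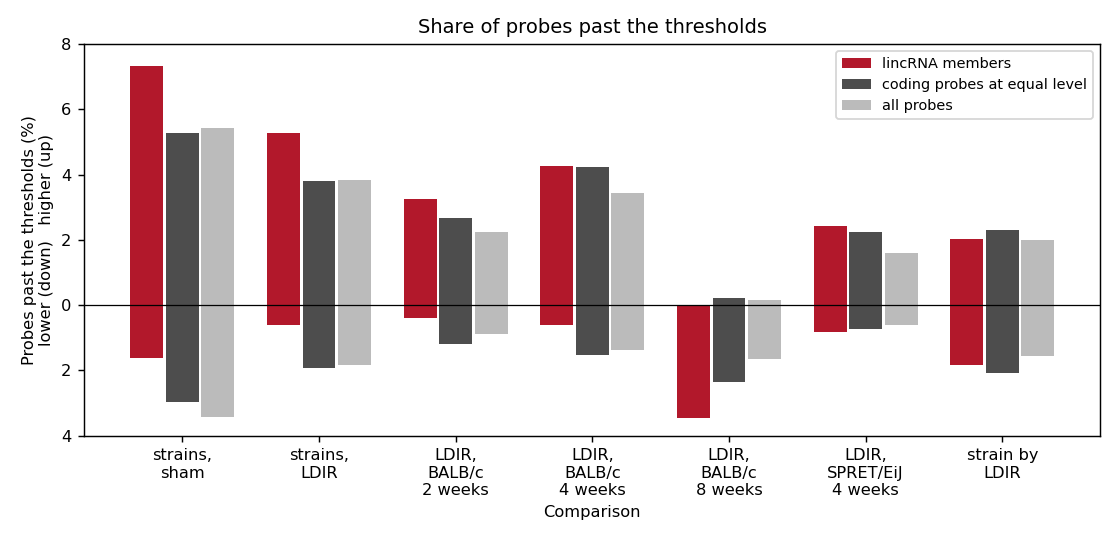
Share of probes past the thresholds in each of the 7 comparisons (x axis), higher above the line and lower under it (y axis, %), for distant lincRNA probes, coding probes of equal level and all probes. The distant lincRNA bars lie near the others, apart from the strain comparisons, where 7.32% were higher in BALB/c sham tissue against 5.27% of coding probes of equal level. In BALB/c at 8 weeks 3.46% were lower and 0 higher, and coding probes of equal level also leaned lower (2.35% lower, 0.216% higher).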

How the data were processed

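Total RNA was hybridised by the authors to 1-colour Agilent mouse expression arrays (annotation mm9). The scanner files hold the intensity of each spot, which the scanner software had background-subtracted and detrended before the authors deposited it, and its detection flags. The deposited table of log2 values, per the authors' methods scaled to the 75th percentile, was used as an alternative (99.744% of values within 0.01 after alignment). Its centring is not given in the sources used here.

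Levels were log2 of the processed signal minus each array's 75th percentile. Of 59305 spots that were not controls, 3777 outlier spots over the 24 arrays were dropped and none was saturated. Spots of a probe were averaged, giving 55681 probes, and probes were kept apart. Groups came from the labels. The labels do not say that arrays came from separate animals, so p-values measure the spread between arrays. The number of arrays limits the precision, and an exact permutation test of 3 against 3 cannot go below 0.1. Each of 7 comparisons was fitted with limma 3.58.1 (lmFit and eBayes, two-sided, R 4.3.3) on its own arrays and all probes, with Benjamini-Hochberg adjustment over them. The thresholds followed the methods of the study. The fit was tested on simulated data. The labels do not say that replicate letters pair the arrays. Deviations of arrays with the same letter had correlations of 0.166, 0.481 and 0.171 in BALB/c at 2 weeks, and of -0.561, -0.565 and 0.546 at 8 weeks. Pairing is thus not established, and a fit with the letter as a block is given with the 2-week comparison.

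Gene spans were estimated after the values were seen, from RefSeq gene lengths for 80.22% of the coding probes with a position. The members and the gene lists were chosen with earlier results of these data known. Named members were the 6 brightest, the 4 farthest that were detected throughout, and up to 6 (strain) or 3 (LDIR, interaction) per direction with the largest difference, detected in the higher group and without overlap. One named member is not reported here. The alternatives tried were normexp background correction, quantile normalization, centring on the median, detected probes only, the methods' t-test, slide and replicate blocks, fits over all 24 arrays, other distances and each array left out.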

Additional observations from a re-analysis of the deposited data

Results flagged for a closer look

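The change after LDIR differed between the strains for a probe at chr1:90912687-90918785_F, with an interaction of 0.93 (log2) whose unadjusted limma p was 0.0068 and adjusted p 0.96. The other probes of the locus had interactions of 0.3 and 1.0 without passing. Of the distant lincRNA probes, 3.86% passed the thresholds of this interaction, beside 3.55% of all probes. No other result was picked out, and groups of 3 arrays were not searched for single deviating arrays.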

How the results depend on the processing

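No named difference reversed under any alternative tried, and over the repeats of named differences 402 kept their call and 146 kept only the direction. Shares of distant lincRNA probes past the thresholds are given in the order sham strains, LDIR strains, BALB/c at 2, 4 and 8 weeks, SPRET/EiJ and interaction, where the reported values are 8.94, 5.89, 3.66, 4.88, 3.46, 3.25 and 3.86%. Normexp background correction, whose offset of 50 shrinks differences between dim signals, gave 5.08, 1.02, 0, 0, 0, 0 and 0.203%. An adjusted p under 0.05 gave 17.1 and 11.0% for the strains and 0 for the rest. The methods' t-test gave 3.86, 1.63, 2.24, 2.03, 1.83 and 1.63% for the first 6. Detected probes alone gave 18.2 and 13.3% for the strains, 7.35 and 2.28% for BALB/c at 4 and 8 weeks and 1.52% for SPRET/EiJ. Slide as a block gave 1.02, 1.63, 1.42 and 1.02% for the first 4 and 1.63% for the interaction. Slide as a random block gave 8.94% for the LDIR strains, 1.22% at 2 weeks and 8.54% at 8 weeks. Within slide 3 the LDIR strains gave 0.61%, and within slide 2 the 8-week arrays 1.02% (1 LDIR array, assumed to vary like the sham arrays). A fit over all 24 arrays gave 1.22, 3.25 and 7.72% for BALB/c at 2, 4 and 8 weeks. Quantile normalization gave 1.02% and 1 probe a locus 2.22% at 8 weeks, and a distance of 200 kb 2.38% at 2 weeks. Outside estimated gene spans, a setting chosen after seeing the data, the strains gave 5.39 and 2.69%, and outside the Lsamp span the LDIR strains 3.77%. With the replicate letter as a block, BALB/c at 2 weeks gave 5.89%.

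Leaving out each array in turn gave 6.71 to 8.33% for the sham strains, and 2.24 (without BALB/c LDIR replicate A) to 5.28% for the LDIR strains, with 2.44% without B or C and 3.05% without SPRET/EiJ LDIR replicate B. It gave 3.66 to 5.89% (without sham A) at 2 weeks, 2.85 (without sham B) to 14% (without sham C) at 4 weeks and 1.42 (without LDIR C) to 5.69% (without sham B) at 8 weeks. SPRET/EiJ went from 2.03 (without LDIR C) to 6.1% (without LDIR B), with 5.28% without LDIR A, and the interaction from 3.05 to 7.72% (without BALB/c sham C), with 5.89% without SPRET/EiJ LDIR B. The cause of these shifts was not tested. By the weaker flag for a signal above background, 63.1 to 76.3% of the distant lincRNA probes were detected, by group. Most distant lincRNAs lie near background, which limits fold changes to bounds.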
